A study of Mus musculus with 6 samples.

Results

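The Hox genes were followed in C2C12 cells, a mouse myoblast line from adult leg muscle, with and without knockdown of PRDM2. A gene was taken as a member where a probe set carried exactly 1 gene symbol and that symbol was a Hox gene of the a, b, c or d cluster. The rule found 33 genes among the 18193 genes with such probe sets, and 48 of their probe sets among 45037 that were not array controls. The mouse RefSeq gene table lists 39 Hox genes, and those without a single-symbol probe set were not analysed here. The measured genes are 9 of Hoxa (chromosome 6, 16 probe sets), 9 of Hoxb (chromosome 11, 11 probe sets), 7 of Hoxc (chromosome 15, 11 probe sets) and 8 of Hoxd (chromosome 2, 10 probe sets).

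Gene expression was measured on 6 Affymetrix arrays, 3 in each group. The PRDM2 KD S48 group was a C2C12 pool stably carrying a PRDM2 shRNA, which targets a protein with zinc fingers and a PR domain related to those of histone methyltransferases, and the GFP S48 group was a pool carrying a control shRNA against GFP. Both pools had spent 48 hours in methylcellulose suspension with 20% fetal calf serum, a treatment the labels use to hold myoblasts in G0. Each group is therefore 1 mixed population of transfected cells. The labels number biological replicates of the pool without saying whether they came from separate transfections, so p-values measure the spread between these arrays. In a bulk sample, fewer cells of a type and less RNA per cell cannot be told apart.

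Hox genes encode homeodomain transcription factors and sit in clusters where the order of the genes follows the order of their expression along the body axis. Low-numbered genes are used toward the head and high-numbered genes toward the tail and the far end of the limb. The combination of Hox genes that a cell keeps switched on is a record of where in the body it came from, and cultured fibroblasts and muscle cells retain part of it. In the limb, the Hoxa and Hoxd genes of the high numbers pattern the upper segment, the lower segment and the hand or foot in turn. Polycomb complexes keep the unused genes of a cluster silent, Trithorax-type complexes keep the used ones active, and Pbx, Meis and Pknox proteins bind DNA together with Hox proteins.

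The Hox result with the largest difference lay in a stretch of neighbouring genes in Hoxa, so the 250 bases upstream of the RefSeq starts of Hoxa9, Hoxa10 and Hoxa11 are shown. All are on the minus strand of chromosome 6 of GRCm38.p6, written 5′ to 3′, with CG dinucleotides in capitals. CG-rich sequence is where Polycomb and Trithorax-type complexes are recruited in vertebrates. Hoxa10 has a pair of annotated starts.
Hoxa9, chr6:52227371-52227620: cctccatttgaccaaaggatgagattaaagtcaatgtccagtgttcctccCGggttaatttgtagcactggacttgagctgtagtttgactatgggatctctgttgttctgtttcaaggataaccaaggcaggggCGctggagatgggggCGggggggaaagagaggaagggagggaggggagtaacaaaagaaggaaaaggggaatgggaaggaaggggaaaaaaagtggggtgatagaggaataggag
Hoxa10 first window, chr6:52234940-52235189: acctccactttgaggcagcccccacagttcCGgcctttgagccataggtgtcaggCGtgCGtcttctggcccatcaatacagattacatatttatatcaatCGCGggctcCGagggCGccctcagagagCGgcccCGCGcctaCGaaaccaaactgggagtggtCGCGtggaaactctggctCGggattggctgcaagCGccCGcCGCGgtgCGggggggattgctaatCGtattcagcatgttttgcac
Hoxa10 second window, chr6:52240855-52241104: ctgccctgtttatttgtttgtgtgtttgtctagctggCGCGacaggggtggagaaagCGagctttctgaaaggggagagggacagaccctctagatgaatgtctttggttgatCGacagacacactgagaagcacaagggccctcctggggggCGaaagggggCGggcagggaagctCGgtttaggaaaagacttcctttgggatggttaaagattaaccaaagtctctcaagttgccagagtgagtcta
Hoxa11, chr6:52245811-52246060: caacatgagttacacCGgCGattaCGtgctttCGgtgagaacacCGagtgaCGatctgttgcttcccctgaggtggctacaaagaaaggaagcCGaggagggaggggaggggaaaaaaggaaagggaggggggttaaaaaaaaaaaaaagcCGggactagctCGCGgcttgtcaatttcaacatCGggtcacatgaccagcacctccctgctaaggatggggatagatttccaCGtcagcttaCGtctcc
These windows hold 3 CG dinucleotides for Hoxa9, 20 and 7 for the windows of Hoxa10, and 13 for Hoxa11. RefSeq windows were at hand for 22 Hox genes, 19 of them measured, in 24 windows. Hoxc4 was the only Hoxc gene among them, and Hoxb1, Hoxb4 and Hoxb8 the only Hoxb genes. The values over Hox windows therefore describe mainly Hoxa and Hoxd. The Hox windows held a median of 12.5 CG dinucleotides and a GC content of 58.6%, against 6 and 52.4% over all 32851 windows. At least 10 CG dinucleotides were found in 15 of the 24 Hox windows and in 37.8% of all windows.

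Short motifs were searched on both strands of the same windows. The E-box CANNTG, which MyoD and Twist proteins recognise, was in 17 Hox windows (70.8%) and 66.2% of all windows, with 1 match each in the Hoxa9 and Hoxa11 windows shown and 0 in those of Hoxa10. The Pbx and Hox motif TGATTNAT was in 2 Hox windows (8.3%) and 2.8% of all windows, and the caudal-type and posterior Hox motif TTTATG in 5 (20.8%) and 10.8%. Neither of these motifs was found in the 4 windows shown. A match is only a run of letters in this window, and no binding was measured.

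The deposited values are intensities, the brightness of a probe set on a linear scale, and are given per array before any difference. An intensity of 16 was added before taking log2, and 16 and 64 serve as marks of a dim and a clear signal. Median intensity was 10.6 to 12.1 on the 6 arrays. Different probe sets bind with different strength, so a low reading does not show that a gene is silent, and no level is set against that of another gene. The targeted gene had 3 probe sets. The Prdm2 probe set that represents the gene read 58.0, 51.5 and 29.0 on PRDM2 KD arrays 1 to 3, against 86.2, 73.6 and 47.1 on GFP arrays 1 to 3. The groups overlapped, and the difference of -0.51 on the log2 scale did not pass (limma adjusted p = 0.441 over all probe sets). The others differed by -0.75 (limma adjusted p = 0.475) and 0.10, and neither passed.

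Control signals split the arrays in a way the groups do not account for. The Dap spike, a transcript added during labelling, averaged 21.6 on PRDM2 KD array 3 and 15.4 on GFP array 3, and 108 to 203 on the other 4 arrays. The 5' to 3' ratio of the Gapdh control was 0.0992 on GFP array 3 and 0.704 to 1.14 elsewhere. Beside the main differences stand values from the 4 arrays with high Dap readings alone, and from the 2 with low readings, which hold 1 array of each group and allow no test. Across markers, myoblast genes summed to 1992 to 2318 on PRDM2 KD arrays and 1958 to 2377 on GFP arrays, with Myf5 lower and Itga7 higher in PRDM2 KD and the other 4 of 6 not passing. Differentiated muscle genes differed far more, with 5 of 6 higher, where 2.96% of all genes were. Their summed intensity was 4265 to 5399 on PRDM2 KD arrays, against 174 to 274 on GFP arrays. The remaining one, Ckm, had a difference of -0.58 on the log2 scale that did not pass.

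Markers of other cell types were mostly dim. The 4 endothelial markers summed to at most 18.9 on PRDM2 KD arrays and 26.8 on GFP arrays. The 4 macrophage markers summed to 74.2 to 125 on PRDM2 KD arrays, against 123 to 246 on GFP arrays. In limma 0 of these 8 passed, against 5.16% of all genes. Csf1r was the 1 with an unadjusted p under 0.05, and was lower, where 15.8% of all genes had such a p. The 6 fibroblast and mesenchyme markers summed to 557 to 731 on PRDM2 KD arrays and 226 to 520 on GFP arrays. Of these, Col1a1 was higher by 0.98 on the log2 scale. Pdgfra averaged 381 in PRDM2 KD and 231 in GFP cells, and Dcn 178 and 103. Their differences of 0.71 and 0.55 did not pass. Thy1, Dpt and Lum averaged under 16 in both groups. Of the 4 neuronal markers Tubb3 was lower, at -0.96 on the log2 scale, with sums of 33.4 to 41.7 on PRDM2 KD arrays against 64.3 to 89.4 on GFP arrays. Of the 4 epithelial markers Epcam was higher by 0.66, with sums of 73.8 to 95.2 on PRDM2 KD arrays against 40.2 to 53.8 on GFP arrays. The part of these shifts in the results below was not tested.

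Few Hox genes gave a clear signal. The genes above an intensity of 64 on all 3 arrays of a group were Hoxa9, Hoxa11, Hoxc6 and Hoxc10 in PRDM2 KD cells, and Hoxa9, Hoxc6 and Hoxc10 in GFP cells. That is 12.1% of the 33 Hox genes in PRDM2 KD and 9.09% in GFP cells, where 32.3% and 30.1% of all 18193 genes were above 64. At the other end, 18 Hox genes (54.5%) stayed below 16 on every array, against 35.7% of all genes. They were Hoxa2, Hoxa4, Hoxa7 and Hoxa13, then Hoxb1, Hoxb2, Hoxb5, Hoxb6, Hoxb9 and Hoxb13, and all 8 measured Hoxd genes. No Hoxc gene was in this group.

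The readings by cluster describe these probe sets and do not rank the clusters by expression. Every Hoxb gene stayed at or below 23.7 and every Hoxd gene at or below 15.2 on all 6 arrays, and the highest readings were 223 in Hoxa and 246 in Hoxc. By probe set, 27 of the 48 were below 16 on every array, made up of 8 of 16 in Hoxa, 8 of 11 in Hoxb, 1 of 11 in Hoxc and 10 of 10 in Hoxd. The summed intensity of the Hox genes was 865 to 1070 on PRDM2 KD arrays and 766 to 1116 on GFP arrays, with GFP array 3 the lowest. The plot of intensity by paralogue number shows which genes passed the mark of 64 on any array.

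**Figure D1:**
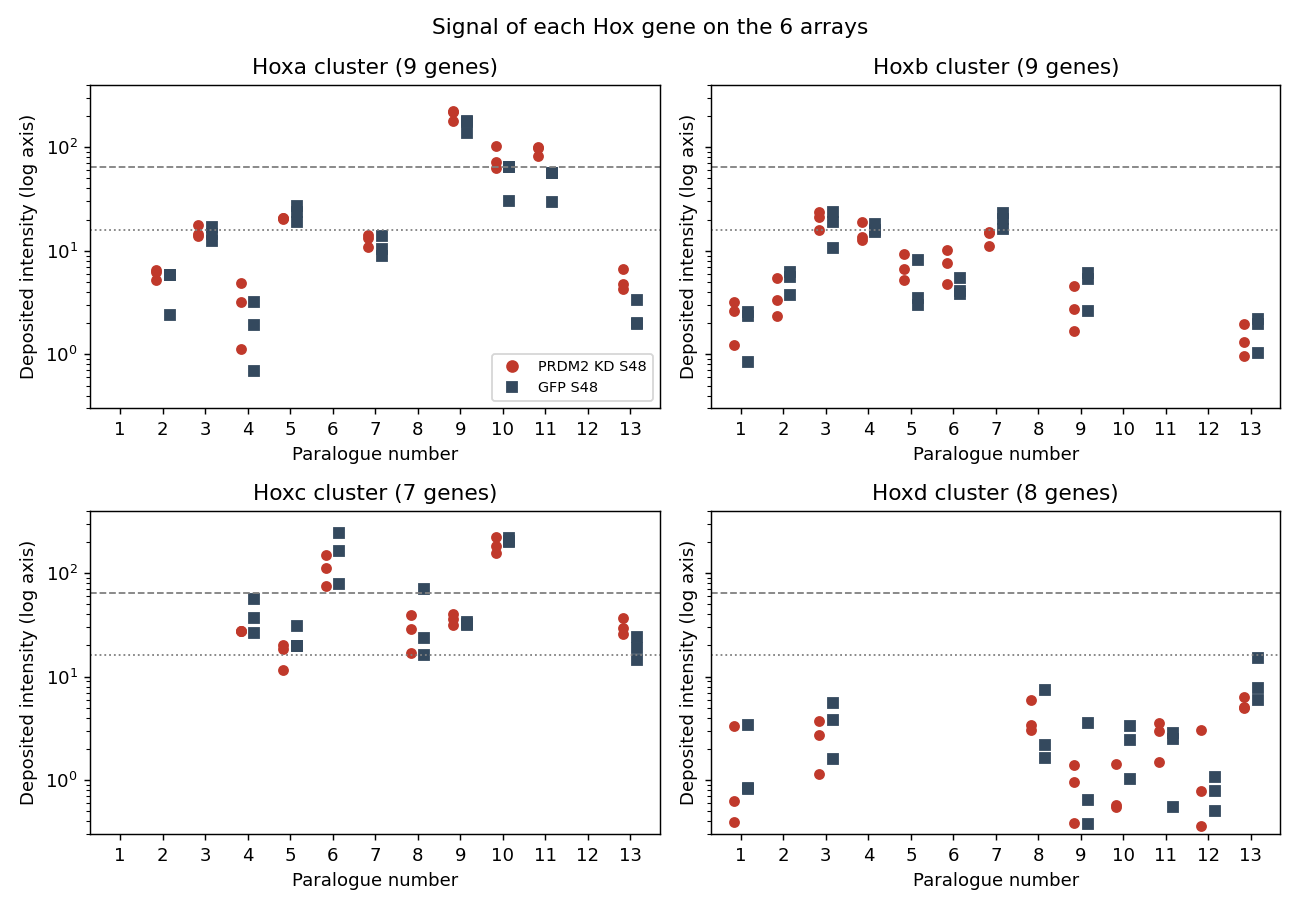
Deposited intensity (log axis) of the representing probe set of each Hox gene against its paralogue number, with 1 panel per cluster. Red circles are the 3 PRDM2 KD S48 arrays and dark squares the 3 GFP S48 arrays, and the dotted and dashed lines mark 16 and 64. All Hoxd points lie below the dotted line, and the points above the dashed line belong to Hoxa9, Hoxa10, Hoxa11, Hoxc6, Hoxc8 and Hoxc10.

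No Hox gene passed the comparison of PRDM2 KD with GFP. With limma over all genes and Benjamini-Hochberg adjustment, 0 of 33 had an adjusted p under 0.05, where 5.16% of the 18193 genes did (938 genes, with 2.96% of all genes higher and 2.19% lower in PRDM2 KD). At an unadjusted p under 0.05 there were 2, Hoxa11 and Hoxc13, both higher, against 15.8% of all genes. By probe set 0 of 48 passed, where 2.43% of all probe sets did, and 4 had an unadjusted p under 0.05, where 11.7% did. Of the 5 Hox genes with a mean intensity of at least 64 also 0 passed, against 7.59% of the 6526 genes at that level.

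Differences ran from -0.48 to 0.75 on the log2 scale, with a median of 0.04, against -0.00395 for all genes. The mean was higher in PRDM2 KD for 17 Hox genes and lower for 16. By deposited intensity, the 3 arrays of a group lay apart from the 3 of the other for 5 Hox genes, where 21.1% of all genes did so. They were higher in PRDM2 KD for Hoxa9, Hoxa11, Hoxa13 and Hoxc13 (12.4% of all genes) and lower for Hoxb7 (8.72% of all genes). The exact permutation test of a single gene cannot go below 0.1 with 3 arrays against 3. The clusters had medians of 0.10 for Hoxa, -0.02 for Hoxb, -0.25 for Hoxc and -0.03 for Hoxd, with 8 of 9 Hoxa means higher and 5 of 7 Hoxc means lower in PRDM2 KD, and 0 genes passing in each cluster.

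**Figure D2:**
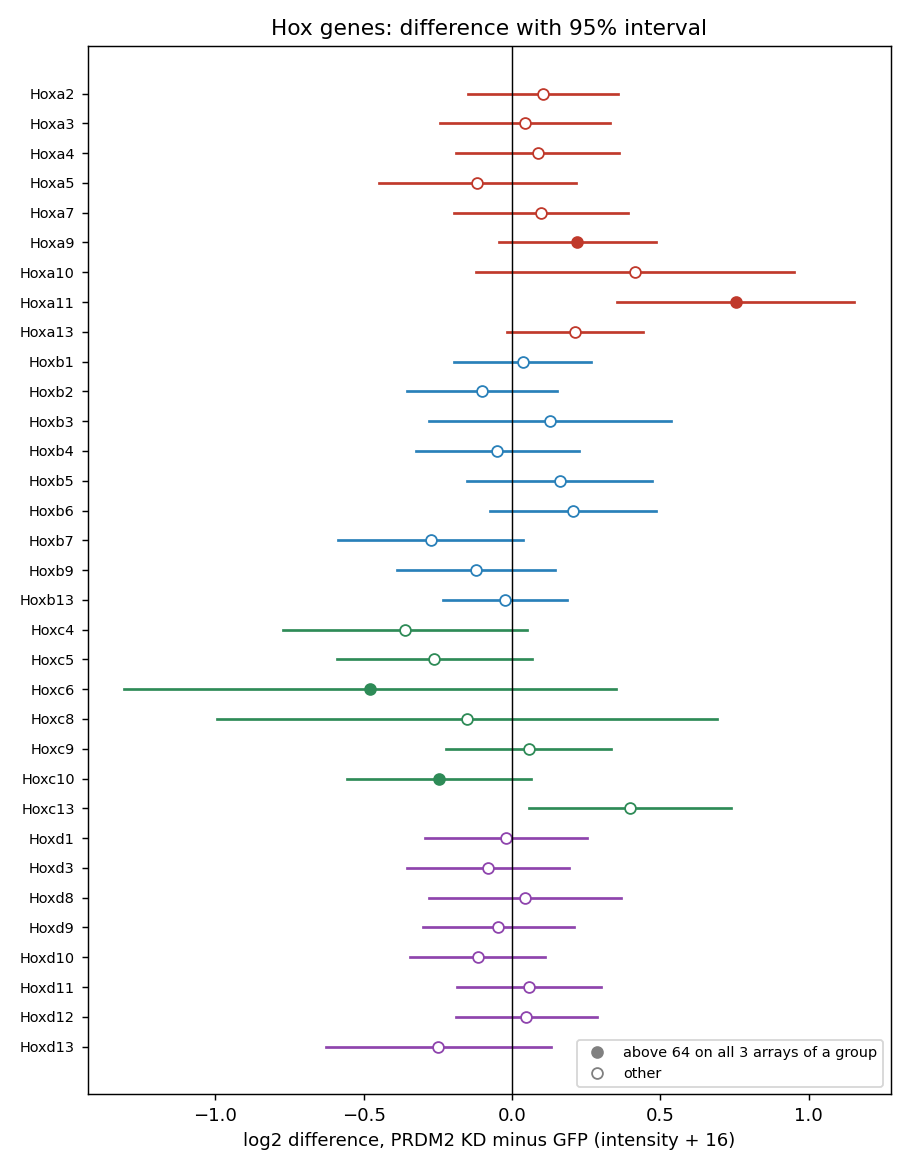
Difference between PRDM2 KD and GFP in log2(intensity + 16) for the 33 Hox genes, with the 95% interval of the limma fit, coloured by cluster. Filled points are genes above 64 on all 3 arrays of a group. The intervals of Hoxa11 and Hoxc13 lie above 0 and all the others include 0, before adjustment for the number of genes tested.

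In Hoxa, the representing probe sets gave -0.12 to 0.10 from Hoxa2 to Hoxa7, and 0.22, 0.42 and 0.75 at Hoxa9, Hoxa10 and Hoxa11, the genes whose upstream windows are given above. The genes from Hoxa2 to Hoxa7 were dim, where the added 16 shrinks a difference, and further probe sets of Hoxa3 and Hoxa5 gave up to 0.22 and 0.46. Hoxa11, which patterns the lower limb segment and which in chick limb muscle is expressed in myoblasts, had intensities of 101, 98.4 and 81.9 on PRDM2 KD arrays 1 to 3, against 56.5, 56.6 and 29.6 on GFP arrays 1 to 3. Every PRDM2 KD array was above every GFP array, and GFP array 3 was the lowest. The means were 93.7 ± 10.3 in PRDM2 KD and 47.6 ± 15.6 in GFP cells (SD, n = 3 each). On the log2 scale the difference was 0.75 (SE 0.168, 95% interval 0.35 to 1.15), or 1.69-fold for normalized intensity with 16 added, which is less than the ratio of the means above.

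This difference did not pass in the limma fit over all genes (adjusted p = 0.0567) or over all probe sets (adjusted p = 0.0964). The exact two-sided permutation test gave p = 0.1, the smallest it can give. Hoxa11 was higher in PRDM2 KD by 0.66 over the 4 arrays with high Dap readings and by 0.94 over the 2 with low readings. The labels name no batch, and the split into high and low Dap arrays was cut from these readings. With this Dap split as a block in limma the adjusted p of Hoxa11 was 0.0162, which passes. Without GFP array 3 the Hoxa11 difference was 0.58 with a limma adjusted p of 0.0705. Over 21 alternatives the limma adjusted p ran from 0.0162 to 0.223, and 4 of them passed. With an offset of 64 the difference was 0.47.

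The representing probe sets of Hoxa10 and Hoxa9 had smaller differences in the same direction, and neither gene passed. Hoxa10, used with Hoxa11 in the limb and in the uterus, had intensities of 104, 71.6 and 62.5 on PRDM2 KD arrays, against 64.9, 64.8 and 30.4 on GFP arrays. The groups overlapped, and the difference of 0.42 had a 95% interval of -0.12 to 0.95 (limma adjusted p = 0.48). A further Hoxa10 probe set was below 18 on all arrays, with a difference of -0.30. Hoxa9, a gene of the upper limb segment that is also known in blood stem cells and in aged muscle stem cells, had 223, 218 and 178 on PRDM2 KD arrays, against 178, 174 and 139 on GFP arrays. The lowest PRDM2 KD array and the highest GFP array were nearly equal. The difference of 0.22 (95% interval -0.04 to 0.48) did not pass (limma adjusted p = 0.434). A further, dimmer Hoxa9 probe set gave 0.17 with overlapping groups (limma adjusted p = 0.836 over probe sets).

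**Figure D3:**
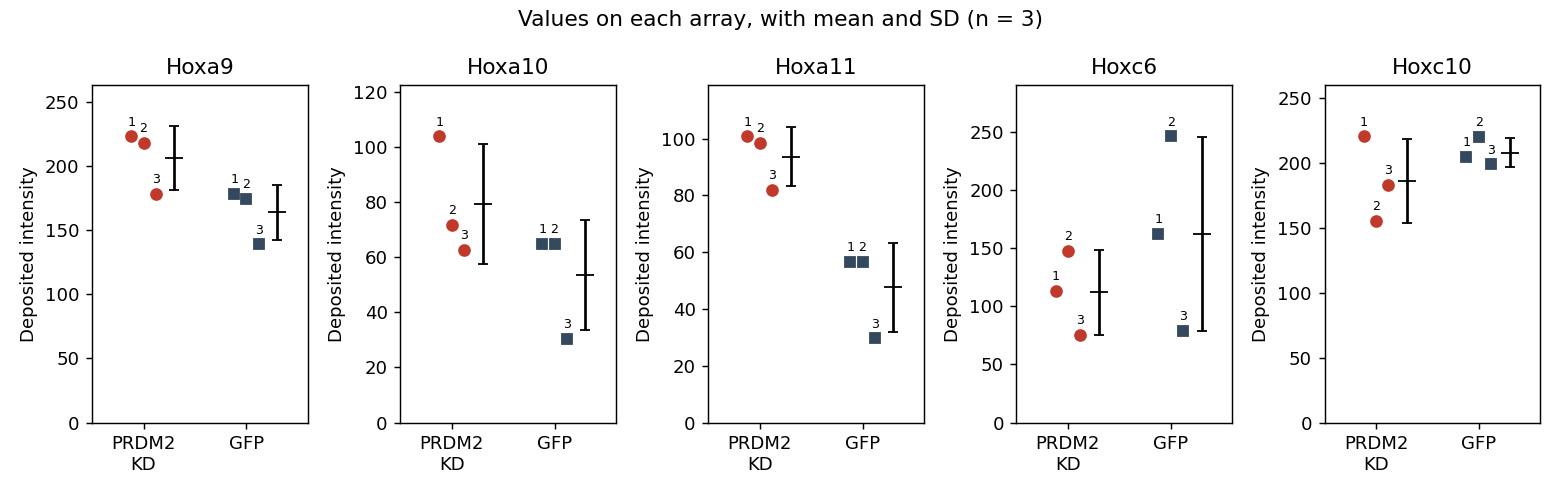
Deposited intensity on each array for Hoxa9, Hoxa10, Hoxa11, Hoxc6 and Hoxc10, the 5 Hox genes with a mean of at least 64. Red circles are PRDM2 KD and dark squares GFP, numbers are the replicate, and bars are the mean and SD of 3 arrays. For Hoxa11 all PRDM2 KD points (81.9 to 101) lie above all GFP points (29.6 to 56.6), and for Hoxc6 and Hoxc10 the groups overlap.

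The remaining Hoxa genes were dim. Hoxa13, which patterns the hand and foot, read 4.78, 4.32 and 6.70 on PRDM2 KD arrays, against 2.01, 1.97 and 3.34 on GFP arrays. These groups did not overlap, but all 6 values lay below 16, and the difference of 0.21 did not pass (limma adjusted p = 0.368). The probe sets of Hoxa5, a gene of the neck and upper trunk, went different ways. The one that represents the gene, whose name marks it as open to cross-hybridization, gave -0.12 (20.5, 20.3 and 20.8 in PRDM2 KD, against 23.8, 19.1 and 27.0 in GFP). The other gave 0.46 (31.9, 20.6 and 23.8 in PRDM2 KD, against 16.2, 12.6 and 13.1 in GFP), with a limma adjusted p of 0.204 over probe sets. The direction for Hoxa5 therefore depends on the probe set, and neither passed.

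On the same chromosome, Hoxa11os, a noncoding RNA transcribed from the opposite strand beside Hoxa11, had intensities of 103, 107 and 121 on PRDM2 KD arrays, against 73.3, 83.8 and 75.7 on GFP arrays. The groups did not overlap, and the difference of 0.35 (95% interval 0.09 to 0.62) did not pass (limma adjusted p = 0.164). Positions of the probes were not analysed here, so which transcript each reading of Hoxa11 and Hoxa11os measures was not checked. A further probe set of Hoxa11os was under 3 on every array. Hoxb5os was below 7 on all arrays. These were the only measured genes among 19 listed noncoding genes of the clusters. Of these 2 listed genes, 0 passed and 1 had an unadjusted p under 0.05, where 5.16% and 15.8% of all genes did. Hoxd3os1, a noncoding gene of the Hoxd cluster, was measured but was not in the list. Its probe sets were below 16 on every array, with differences of 0.08 and 0.10 that did not pass.

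In Hoxc, most means were lower in PRDM2 KD, and the spread between arrays was wide. Hoxc6, a gene of the upper trunk at the level of the forelimb, had 113, 148 and 75.2 on PRDM2 KD arrays, against 162, 246 and 78.5 on GFP arrays. Array 3 was the lowest in both groups, and the groups overlapped. The means were 112 ± 36.4 in PRDM2 KD and 162 ± 83.7 in GFP cells (SD, n = 3 each), a log2 difference of -0.48 with a 95% interval of -1.31 to 0.35 (limma adjusted p = 0.639). The other probe sets of Hoxc6 gave -0.09 and -0.34. Without single arrays the Hoxc6 difference ran from -0.80 to -0.18.

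Hoxc10, a gene of the lower trunk and hindlimb that marks hindlimb-derived cells, had 220, 156 and 183 on PRDM2 KD arrays, against 204, 220 and 199 on GFP arrays. The GFP arrays were close together and PRDM2 KD array 1 was level with the highest of them. Means were 186 ± 32.6 in PRDM2 KD and 208 ± 11.1 in GFP cells (SD, n = 3 each), and the log2 difference of -0.25 (95% interval -0.56 to 0.06) did not pass (limma adjusted p = 0.461). It was -0.15 without PRDM2 KD array 2, -0.11 with array weights, -0.16 with no normalization and -0.14 with median scaling. Hoxc4 (27.3, 27.7 and 27.5 in PRDM2 KD, against 26.1, 55.9 and 37.1 in GFP), with a difference of -0.36, belongs to the neck end of the cluster. Hoxc5, Hoxc8 and Hoxc9 differed by -0.26, -0.15 and 0.06, and their groups overlapped. GFP array 2 held the highest GFP reading of Hoxc4, Hoxc5, Hoxc6, Hoxc8 and Hoxc10.

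Hoxc13, the last gene of its cluster and a regulator of hair keratins, went the other way. It read 36.4, 25.8 and 29.6 on PRDM2 KD arrays, against 24.0, 19.1 and 14.6 on GFP arrays, and the groups did not overlap. Means were 30.6 ± 5.36 in PRDM2 KD and 19.2 ± 4.72 in GFP cells (SD, n = 3 each). The log2 difference of 0.40 (95% interval 0.06 to 0.74) was 0.33 over the arrays with high Dap readings and 0.53 over the others, and it did not pass (limma adjusted p = 0.23). The values of Hoxa5, Hoxa10, Hoxa13, Hoxb7, Hoxc4 and Hoxc13 on each array are given although they lay outside the rule for naming genes, and these genes were chosen after their values were seen.

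Hoxb and Hoxd gave little signal to compare. Hoxb differences ran from -0.27 to 0.21 and Hoxd differences from -0.25 to 0.06. Hoxb7, a trunk gene, read 11.1, 14.8 and 15.2 on PRDM2 KD arrays, against 16.4, 20.3 and 23.3 on GFP arrays, and the groups did not overlap. Its difference of -0.27 did not pass (limma adjusted p = 0.399). At this brightness the added 16 shrinks a difference, so a change in these clusters could be missed. Probe sets shared by a pair of Hox symbols, Hoxb8 with Hoxb7 and Hoxd4 with Hoxd3, were also below 16 on every array.

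The genes that flank the clusters and those that act with or upstream of Hox proteins were described from lists drawn from general knowledge. Over 6 of these lists 8 genes were higher and 4 lower in PRDM2 KD, where 2.96% of all genes were higher and 2.19% lower. Of all genes with a mean intensity of at least 64, 7.59% passed. Among 23 genes that flank the 4 clusters, 0 were higher and 1 was lower (4.35% passing, against 5.16% of all genes), and the median difference was -0.02. The lower one was Skap2, an adaptor protein gene that flanks Hoxa, with 124, 116 and 81.5 on PRDM2 KD arrays, against 220, 181 and 152 on GFP arrays. The difference was -0.79 (limma adjusted p = 0.0411), and it no longer passed when any single array was left out (limma adjusted p 0.0688 to 0.141). Its other probe sets gave -0.26 and -0.52, and the mean of all 3 gave -0.53 (limma adjusted p = 0.112). At the Hoxa13 end of the cluster, Hibadh, a gene of valine breakdown, averaged 295 ± 7.27 in PRDM2 KD and 198 ± 45.7 in GFP cells (SD, n = 3 each). Its difference of 0.47 did not pass (limma adjusted p = 0.18). Evx1, which lies between Hoxa13 and Hibadh, was below 16 on all arrays and differed by -0.05. Hnrnpa1, which flanks Hoxc, had a difference of -0.49 that did not pass (limma adjusted p = 0.189). Of the 23 means 11 were higher and 12 lower in PRDM2 KD. Hibadh, Evx1 and Hnrnpa1 were named after their values were seen.

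Of 8 measured TALE homeodomain genes, the Hox cofactors, 1 was higher and 0 were lower in PRDM2 KD. That is 12.5% passing, against 5.16% of all genes, with a median difference of 0.12. Pknox2 rose, with 33.1, 35.9 and 29.4 on PRDM2 KD arrays, against 16.3, 18.3 and 10.4 on GFP arrays, a log2 difference of 0.67 (95% interval 0.39 to 0.94, limma adjusted p = 0.0221). It was 0.62 over the arrays with high Dap readings and 0.75 over the others. It no longer passed without PRDM2 KD array 1, 2 or 3 or GFP array 1, with limma adjusted p from 0.0383 to 0.101 over the 6 arrays left out. Its other probe set, below 6 on all arrays, gave 0.06, and with the mean of both the difference was 0.37 (limma adjusted p = 0.0403). Meis1, the cofactor of the upper limb segment, had 71.5, 63.8 and 54.7 on PRDM2 KD arrays, against 92.9, 94.4 and 106 on GFP arrays. These did not overlap, and the difference of -0.61 did not pass (limma adjusted p = 0.0693). Meis1 was named after its values were seen.

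Of 19 measured genes that switch Hox genes on or hold them active, 1 was higher and 0 were lower. That is 5.26% passing, against 5.16% of all genes, with a median difference of -0.05. Egr2, which activates Hoxa2 and Hoxb2 in the developing hindbrain and is induced by growth signals in many cells, rose in PRDM2 KD. It had 295, 319 and 191 on PRDM2 KD arrays, against 83.7, 82.9 and 59.3 on GFP arrays, a log2 difference of 1.54 (limma adjusted p = 0.00633). A further Egr2 probe set gave 1.56 (limma adjusted p = 0.016 over probe sets). Its targets differed by 0.10 for Hoxa2 and -0.10 for Hoxb2, both below 16 on all arrays. The Trithorax-type genes Kmt2a and Kmt2b had differences of 0.12 and 0.22 and did not pass, and the caudal genes Cdx1, Cdx2 and Cdx4 averaged at most 5.03 in either group.

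None of the 14 measured Polycomb core genes passed in limma, against 5.16% of all genes, and their median difference was 0.04. At an unadjusted p under 0.05, 1 was higher and 2 were lower, where 15.8% of all genes had such a p. Rnf2, the ubiquitin ligase of the complex that marks histone H2A, had 342, 393 and 283 on PRDM2 KD arrays, against 350, 332 and 177 on GFP arrays, a difference of 0.19 (95% interval -0.31 to 0.68). Phc2, a structural member of that complex, had 375, 243 and 274 on PRDM2 KD arrays, against 323, 359 and 375 on GFP arrays, a difference of -0.34 (95% interval -0.78 to 0.11). The groups overlapped for both. Ezh2, the methyltransferase of the other complex, averaged 83.5 ± 10.4 in PRDM2 KD and 113 ± 10.8 in GFP cells (SD, n = 3 each). Its difference of -0.47 did not pass (limma adjusted p = 0.197). The others with an unadjusted p under 0.05 were Jarid2 and Bmi1. Jarid2 had a difference of -0.71 with overlapping groups (limma adjusted p = 0.256). Bmi1 had a difference of 0.29 with groups that did not overlap (limma adjusted p = 0.313). Ezh2, Jarid2 and Bmi1 were named after their values were seen.

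Retinoic acid is the signal that opens the low-numbered end of the Hox clusters in the embryo. Of 16 measured genes of retinoid metabolism and signalling, 3 were higher and 0 lower in PRDM2 KD, and all 3 are enzymes. That is 18.8% passing, against 5.16% of all genes, with a median difference of 0.09. Rdh10, which oxidises retinol to retinal, had 278, 384 and 317 on PRDM2 KD arrays, against 99.3, 122 and 91.7 on GFP arrays, a log2 difference of 1.41 (limma adjusted p = 0.0031). Its further probe set also gave 1.41 (limma adjusted p = 0.013 over probe sets). Dhrs3, which reduces retinal back to retinol and is itself induced by retinoic acid, had 583, 480 and 743 on PRDM2 KD arrays, against 174, 196 and 199 on GFP arrays. Its difference was 1.49 (limma adjusted p = 0.00921). Both genes were at least 2 times brighter on every PRDM2 KD array than on any GFP array.

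Aldh1a3, which makes retinoic acid from retinal, had 58.4, 62.0 and 71.2 on PRDM2 KD arrays, against 14.2, 38.6 and 16.6 on GFP arrays, with GFP array 2 the highest of its group. The difference was 1.05 (limma adjusted p = 0.0335), and the call was lost without any single array other than GFP array 2. The call was also lost with the Dap split as a block (limma adjusted p = 0.0535). Its further probe sets gave 0.48 and 0.08, and averaging all of them the difference was 0.54 (limma adjusted p = 0.114). The retinoic acid receptor gene Rarb, a direct target of the signal, had a difference of 0.84 that did not pass (limma adjusted p = 0.0904). Rarb was dim, with 15.3, 32.8 and 35.1 on PRDM2 KD arrays, against 4.91, 14.6 and 6.06 on GFP arrays. Crabp2, Stra6 and Cyp26a1 of the same list had differences of -0.45, -0.16 and -0.10 and did not pass. Over the list 10 means were higher and 6 lower in PRDM2 KD. Rarb, Crabp2, Stra6 and Cyp26a1 were named after their values were seen. Of the measured Hox genes numbered 1 to 4, Hoxc4 had the lowest difference (-0.36) and Hoxb3 the highest (0.13). Among them 0 passed and 0 had an unadjusted p under 0.05, where 5.16% and 15.8% of all genes did. Apart from Hoxc4 they stayed at or below 23.7 on all arrays, where the added 16 shrinks a difference, so a change could be missed.

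The limb and axial position factors, transcription factors outside the Hox clusters, moved in both directions. Of 38 measured, 3 were higher and 3 lower in PRDM2 KD (15.8% passing, against 5.16% of all genes, median 0.01). Tbx18, which marks mesenchyme of the front part of the somite and limb, rose, with 229, 205 and 171 on PRDM2 KD arrays, against 85.3, 76.1 and 51.1 on GFP arrays. Its log2 difference was 1.26 (limma adjusted p = 0.00511), and its dimmer probe set gave 0.73 and did not pass. Tbx2, a repressor in limb and heart, read 14.1, 9.74 and 17.7 on PRDM2 KD arrays, against 3.51, 3.14 and 3.81 on GFP arrays, a difference of 0.62 (limma adjusted p = 0.0408) at low brightness. The Tbx2 call was lost without any single array other than PRDM2 KD array 2.

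Tbx15, a factor of limb and trunk mesenchyme, read 43.0, 44.9 and 43.0 on PRDM2 KD arrays, against 20.2, 30.7 and 24.1 on GFP arrays. Its difference was 0.52 (limma adjusted p = 0.043), but the call was lost without any single array. The call was also lost with the Dap split as a block (limma adjusted p = 0.0596). Its other probe set gave -0.38, so the direction of Tbx15 depends on the probe set.

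Irx5, a homeodomain factor of the front part of the early limb bud, fell, with 56.4, 57.3 and 46.5 on PRDM2 KD arrays, against 121, 129 and 92.3 on GFP arrays. The log2 difference was -0.97 (95% interval -1.23 to -0.72, limma adjusted p = 0.00376), and it passed under all 21 alternatives. Irx3, its partner in the limb bud, had a difference of -0.71 that did not pass (limma adjusted p = 0.0675), with overlapping groups, and was named after its values were seen. Prrx1, the paired-type factor of limb bud mesenchyme, fell, with 228, 217 and 252 on PRDM2 KD arrays, against 471, 534 and 326 on GFP arrays. Its difference was -0.95 (limma adjusted p = 0.00925), and without PRDM2 KD array 1 the limma adjusted p was 0.0541. Of its 5 further probe sets 4 had a lower mean in PRDM2 KD and 1 gave 0.02, and with the mean of all 6 the difference was -0.52 and did not pass (limma adjusted p = 0.305). The call was also lost with the probe set of largest variance (0.492), with no normalization (0.0503), with an offset of 1 (0.0503) and with ordinary statistics (0.0805), all limma adjusted p.

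Prrx2, the relative of Prrx1, fell as well, with 413, 361 and 387 on PRDM2 KD arrays, against 647, 602 and 495 on GFP arrays, a difference of -0.64 (limma adjusted p = 0.0129). That call was lost without PRDM2 KD array 1 (0.0523), PRDM2 KD array 2 (0.0532) or GFP array 1 (0.0649), all limma adjusted p. Genes that tell forelimb from hindlimb were dim, with Tbx4, Tbx5 and Pitx1 averaging at most 7.71 in either group. Over the arrays with high Dap readings and over the others, the differences were 1.68 and 1.25 for Egr2, 1.41 and 1.40 for Rdh10, 1.41 and 1.63 for Dhrs3, and 1.25 and 1.27 for Tbx18. They were -0.95 and -1.01 for Irx5, -1.11 and -0.62 for Prrx1, and -0.66 and -0.59 for Prrx2. Each of these genes differed in the same direction in both subsets. Over the alternatives, the call was lost in 0 for Irx5, 1 each for Egr2, Dhrs3 and Tbx18, 2 for Rdh10, 6 each for Pknox2 and Prrx1, 8 for Prrx2, 11 for Tbx2, 12 for Aldh1a3 and 16 each for Skap2 and Tbx15, and the sign of Tbx15 turned in 1 more.

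**Figure D4:**
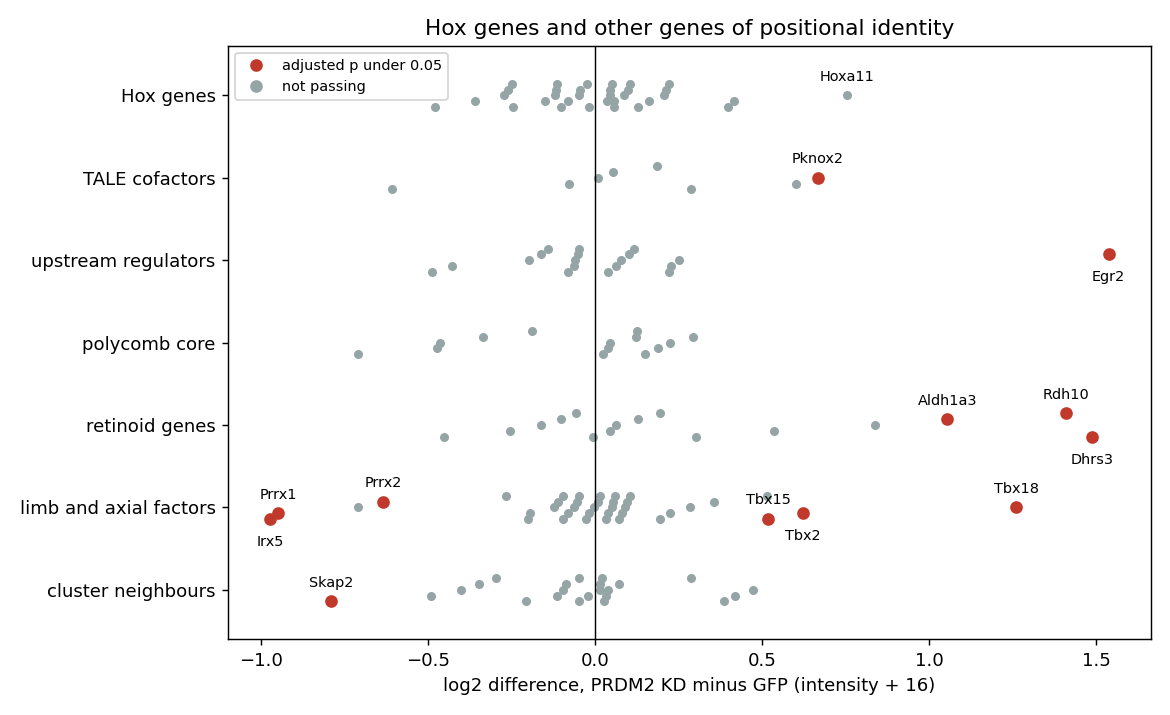
Difference between PRDM2 KD and GFP in log2(intensity + 16) for each measured gene of the Hox clusters and of 6 lists, 1 row per list and 1 point per gene. Red points passed at a limma adjusted p under 0.05 and grey points did not. The Hox row holds 0 red points and reaches 0.75 at Hoxa11, while the retinoid row holds Rdh10, Dhrs3 and Aldh1a3 to the right and the limb and axial row holds genes on both sides.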

How the data were processed

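The authors deposited linear intensities, 1 for each probe set on each array. The submitters' processing notes name GCOS and PLIER. Background correction and between-array normalization are not given in the sources used here, and neither is a genome build for the array. Per the labels' protocols, Trizol was used for total RNA, 8 ug of which went into biotinylated cRNA.

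In R 4.3.3 with limma 3.58.1, 64 control probe sets were left out of 45101. Values were taken as log2(intensity + 16) and quantile normalized, and the offset understates differences of dim genes. Means and SDs are of deposited intensities. Probe sets were named from the platform annotation, with 1 symbol for 34945, several for 932 and none for 9160. The probe set of highest mean normalized value represented a gene. PRDM2 KD was compared with GFP with lmFit and eBayes, and p-values were adjusted by Benjamini and Hochberg's method over all genes or all probe sets, passing at an adjusted p under 0.05. Upstream sequences are RefSeq's, GRCm38.p6. RefSeq supplied the order of genes.

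The members, lists and tests were chosen with earlier results of these data known. Values on every array were to be given for Hox genes past the threshold, above 64 on all arrays of a group, or differing by at least 0.5 without overlap, and in other lists for passing genes, or for the 2 brightest where none passed. A simulated set held 18193 genes, 200 of them changed on the log2 scale after the offset was added. The fit called 59% of those changed 2-fold on that scale and 90% of those changed 4-fold. Unchanged genes made up 10.8% of those calls, and 0 calls were made with no change simulated. For a dim gene such a change stands for a larger change in intensity. The rates therefore do not show how often a change of that size in the intensity of a dim Hox gene would be called.
Alternatives varied the normalization, offset, low-value filter, representing probe set, variance model, blocks and arrays included. The choice of probe set by highest deposited mean was added after seeing the data.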

Additional observations from a re-analysis of the deposited data

How the results depend on the processing

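The arrays give no more than 3 values a group, and 55.1% to 58.2% of probe sets on each array lay below 16, where a difference is shrunk by the offset. The Hox genes gave 1 call (Hoxa11, higher) with a filter at a mean of 16, which left 13 Hox genes among 10553 genes. The same call came with array weights, with the replicate block and with the Dap split as a block. The other settings gave 0 Hox calls. The 48 Hox probe sets gave 1 call, higher, with the Dap split as a block. Leaving out single arrays gave 0 Hox calls. Hoxa9, Hoxc6 and Hoxc10 kept their direction and did not pass under all 21 alternatives. With a mark 2 times as high as 64, 2 Hox genes were above it on all PRDM2 KD arrays, against 4 with 64. The 6 lists, with 8 genes higher and 4 lower, gave these counts of higher and lower: 7 and 1 with no normalization, 8 and 2 with median scaling, 7 and 1 with an offset of 1, 6 and 2 with the probe set of largest variance, 0 and 2 with ordinary statistics, 9 and 7 with array weights, 3 and 2 on the arrays with high Dap readings, and 5 and 4 with the Gapdh ratio as covariate. Leaving out single arrays gave 4 to 6 higher and 1 to 4 lower. Tbx15 reversed to -0.38 with the probe set of largest variance. The causes were not tested.

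Over all genes, 938 passed, and 211 did with ordinary statistics, 1615 with array weights, 359 on the arrays with high Dap readings and 436 to 817 with single arrays left out. Over all probe sets, 1094 passed, and 161, 1981, 183 and, with single arrays left out, 384 or more did.

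Arrays of the same replicate number deviated from their group means with correlations of 0.342, 0.00746 and 0.116. PRDM2 KD array 2 correlated better with GFP array 1, so the numbers were not taken as pairs. Both arrays with low Dap readings, 21.6 and 15.4, have replicate number 3. The correlations rest on 3 arrays a group and cannot settle whether arrays of the same number were handled together. With the replicate block, 712 genes, 592 probe sets, and 5 higher and 3 lower list genes passed, and Hoxa11 had a limma adjusted p of 0.0404.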
